A study of Arabidopsis thaliana with 9 samples.

Results

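RNA of whole Arabidopsis seedlings was compared between CAB3::pBVR2, in which phytochromes are inactivated in mesophyll tissue, and 35S::pBVR3, in which they are inactivated constitutively. The array titles placed 3 ATH1 arrays in each line, so that 6 of the 9 arrays of the series made up the comparison. The other 3 arrays, of the parent accession No-0 WT, entered the fit and served as a reference for level. All seedlings were vegetative and 7 days old, and had grown in continuous far-red (FRc) light after a red pulse on the seeds and 3 days of cold in the dark. Both transgenic lines produce pBVR, a biliverdin reductase that consumes the precursor of the phytochrome chromophore. The CAB3 promoter drives it in mesophyll and the 35S promoter in nearly all cells. The paper cites work on other transgenic plants in which expression from the 35S promoter was enriched in vascular tissue. Each genotype was 1 transgenic line, so that the tissue of expression cannot be told apart from the insertion or the strength of the transgene.

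Phytochromes are red and far-red light receptors, and phytochrome A is the main one through which far-red light turns a dark-grown seedling into a green one. Active phytochrome opens the cotyledons, starts the build-up of chloroplasts and holds back the growth of the hypocotyl. Mesophyll is the inner photosynthetic tissue of cotyledons and leaves, and cells of the epidermis, the veins and the hypocotyl lie outside it. In RNA of whole seedlings, fewer cells of a type and less RNA per cell cannot be told apart. A lower signal in CAB3::pBVR2 is therefore a statement on the seedling and not on mesophyll cells.

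Signals are linear array intensities after each array was shifted to a common 75th percentile. Arrays of 1 line correlated at 0.948 to 0.968 over 15436 kept probe sets, and arrays of the pBVR lines with each other at 0.914 to 0.941. An array's background was the highest of 27 bacterial control probe sets, and kept probe sets exceeded it in 97.6% to 99.3% of cases. UBC21, the reference gene of the study, did not pass between the lines (log2 difference −0.16, adjusted p = 0.556, limma). The median of all kept probe sets lay at 0.03 on the log2 scale. Cell type markers could be checked only in part, as the platform table named few of them. The summed signal of STOMAGEN and FMA, both listed for the guard cell lineage, was 781 to 823 in 35S::pBVR3 and 284 to 542 in CAB3::pBVR2. Most of that sum was STOMAGEN, a peptide released by mesophyll, which passed as lower, whereas FMA did not pass. The signal of the trichome marker GIS, which passed as lower, was 66.7 to 113 and 42.5 to 52.8. By contrast, the phloem marker SWEET11 (6424 to 8970 and 9227 to 10894) and the endodermis marker GSO1 (192 to 239 and 269 to 348) had higher signals on every CAB3::pBVR2 array without passing. For 3 root hair markers 0 passed, with a median of 0.67 and overlapping sums (955 to 1349 and 1133 to 1767). Of the seed storage genes, OLEO3 passed as higher (log2 difference 1.5), while PAP85 (−1.7) did not pass. CRU3 (−1.5), named only through the study's list of 2-fold changes, did not pass. The sums of OLEO3 and PAP85 overlapped (536 to 835 and 423 to 731), as did the signals of the epidermal marker FDH and the meristem marker TSO1. No named marker of xylem or pollen was kept. The part of these markers in the results below was not tested.

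More genes were lower than higher in CAB3::pBVR2. At an adjusted p threshold of 0.05 in limma, 1033 probe sets were lower (6.69% of those tested) and 268 were higher (1.74%), together 1301 or 8.43%, so that 79.4% of the calls were lower. The share was 68.0% without the shift of the arrays and 84.5% after scaling to the median. Without the adjustment, 2166 were lower and 1378 higher at p under 0.05. All 3 CAB3::pBVR2 arrays lay below all 3 of 35S::pBVR3 for 15.9% of the probe sets and above them for 11.5%. The mean of CAB3::pBVR2 was the lowest of the 3 lines for 1027 of the 1033 lower calls and the highest for all 268 higher ones. By contrast, the 35S::pBVR3 mean was the highest of the lines for only 71 of the lower calls (6.87%) and the lowest for 34 of the higher ones (12.7%). Leaving out 35S::pBVR3 replicate 1 took the lower calls to 653, and leaving out CAB3::pBVR2 replicate 1 took the higher calls to 99. A block for the replicate number brought the higher calls to 637. The number of higher calls moved more with single arrays and with the block than that of lower calls, as the plot of calls by setting shows.

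**Figure D1:**
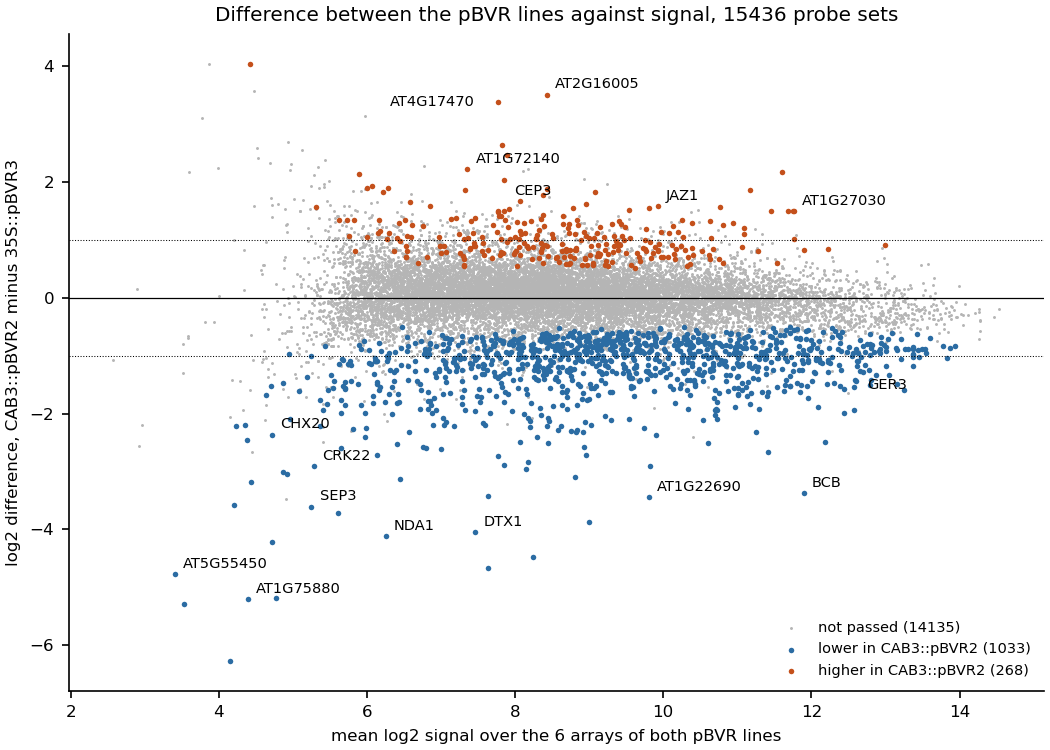
Each point is 1 of 15436 kept probe sets. The x axis is its mean log2 signal over the 6 arrays of the pBVR lines and the y axis the log2 difference, CAB3::pBVR2 minus 35S::pBVR3. Blue points (1033) passed as lower and orange points (268) as higher, and dotted lines mark a 2-fold change. Falls reach further than rises among dim probe sets, where the CAB3::pBVR2 signals come near background, and BCB and AT1G22690 are large falls among bright ones.

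**Figure D2:**
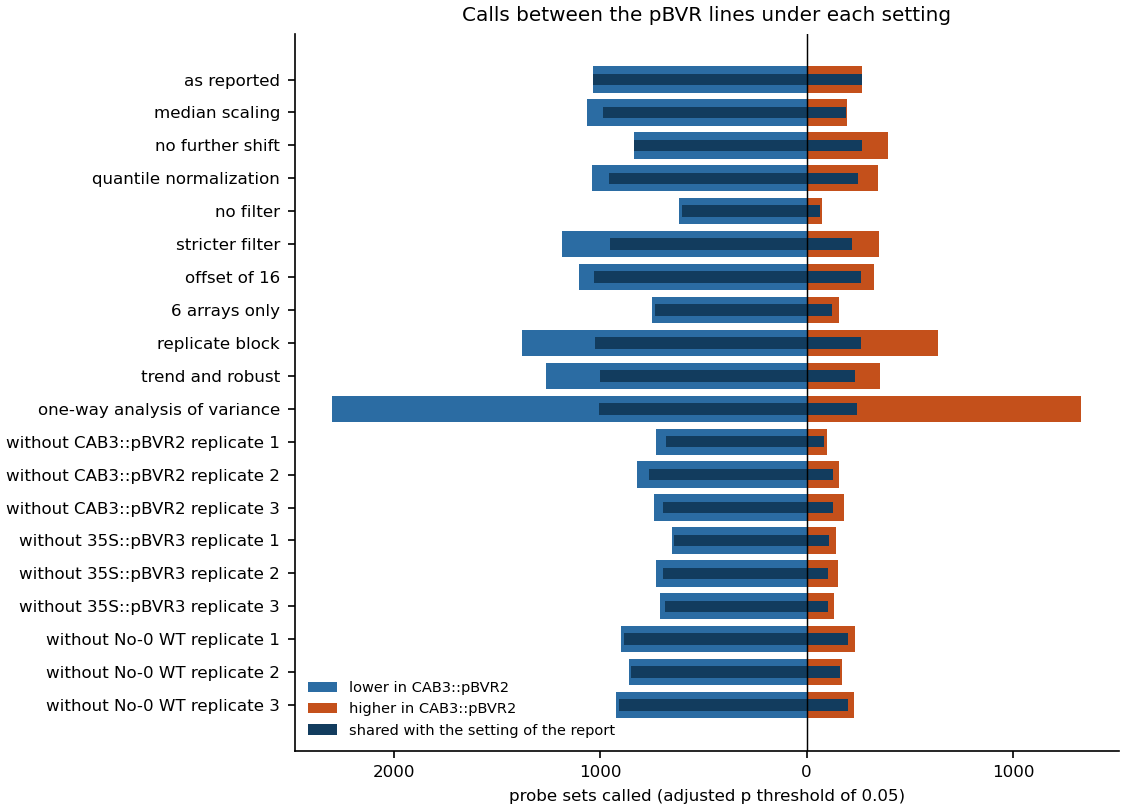
Bars give the probe sets called lower (blue, to the left) or higher (orange, to the right) in CAB3::pBVR2 under each setting, and dark bars those shared with the setting of the report. With any single array left out, a larger share of the lower calls of the report (1033) than of the higher ones (268) was kept, the reverse held without the shift of the arrays, and 0 calls changed sign under any setting shown.

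Among the largest falls outside the tables of the paper were a lipase and 2 lipid transfer proteins. AT1G75880 (chromosome 1, 28490443 to 28492578, TAIR10.1), annotated as the extracellular lipase EXL1, had signals of 148, 172 and 83.0 on the 35S::pBVR3 arrays. On the CAB3::pBVR2 arrays they were 20.9, 1.35 and 1.46, all below background, so that the fall was at least 3.77-fold (adjusted p = 0.0085). The lines did not overlap, and No-0 WT was higher still, at 158 to 352. AT5G55450, of the family of protease inhibitors and lipid transfer proteins, went from 66.5, 98.5 and 26.4 to 2.61, 1.44 and 2.19. Of its 35S::pBVR3 arrays, replicate 3 was itself below background, and the fall was at least 1.64-fold (adjusted p = 0.0016). AT5G48490, of the same family, had 946, 769 and 693 in 35S::pBVR3 and 108, 95.8 and 102 in CAB3::pBVR2. This 7.81-fold fall (log2 difference −2.97 ± 0.21, SE, n = 3 per line, adjusted p = 0.000207) separated the lines widely.

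In the gene titles of the study's list, 7 kept probe sets belonged to the lipid transfer family and all 7 passed as lower, with a median log2 difference of −1.68. The study chose its list by a 2-fold difference on these same arrays, so that size and passing are no independent evidence for any family taken from it, and only the split between lower and higher is described. That split has its own background, since 534 of the 645 called probe sets of the list (82.8%) were lower. This background includes genes named in the tables of the paper, which the counts of families from the list leave out. DIR1, a lipid transfer protein needed for systemic resistance to pathogens, fell 3.21-fold (3700 ± 148 to 1156 ± 132, mean ± SD, n = 3). It lies next to AT5G48490, at 19646028 to 19646840 against 19647784 to 19648362 on chromosome 5. CWLP, a linker between cell wall and plasma membrane, fell 2.68-fold and AT1G62500 fell 2.31-fold. AZI1, which acts with DIR1 in the priming of defence, fell 4.29-fold (adjusted p = 0.0186). Its call ended without CAB3::pBVR2 replicates 2 or 3 or 35S::pBVR3 replicates 1 or 3, with an adjusted p of up to 0.065, as did that of AT4G22490 (up to 0.0664) without several single arrays.

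All 3 listed lipases of the GDSL and EXL kind were lower, beside 82.8% of all listed calls, with a median of −2.28. AT1G33811, a GDSL lipase, had 1028, 985 and 590 in 35S::pBVR3 and 288, 129 and 139 in CAB3::pBVR2, a 4.87-fold fall (adjusted p = 0.00677). AT3G48460, of the same family, fell 4.23-fold. Neither overlapped between the lines.

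Likewise 8 of 8 listed enzymes of fatty acid, sterol and wax synthesis were lower (median −1.48). LACS1, the acyl-CoA synthetase that feeds cuticular wax and cutin, went from 146 ± 18.8 to 27.8 ± 6.69, a 5.32-fold fall (log2 difference −2.41 ± 0.22, SE, adjusted p = 0.000515), with 2 of the 3 CAB3::pBVR2 arrays below background. FAD5 and FAD6, desaturases that act on the lipids of plastid membranes, fell 2.87-fold and 2.37-fold from high signals (9141 ± 762 and 5788 ± 610 in 35S::pBVR3). AT1G27480, of the lecithin:cholesterol acyltransferase family, fell 3.72-fold. For each of these 4 genes the arrays of the lines did not overlap and the call held under every setting tried.

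**Figure D3:**
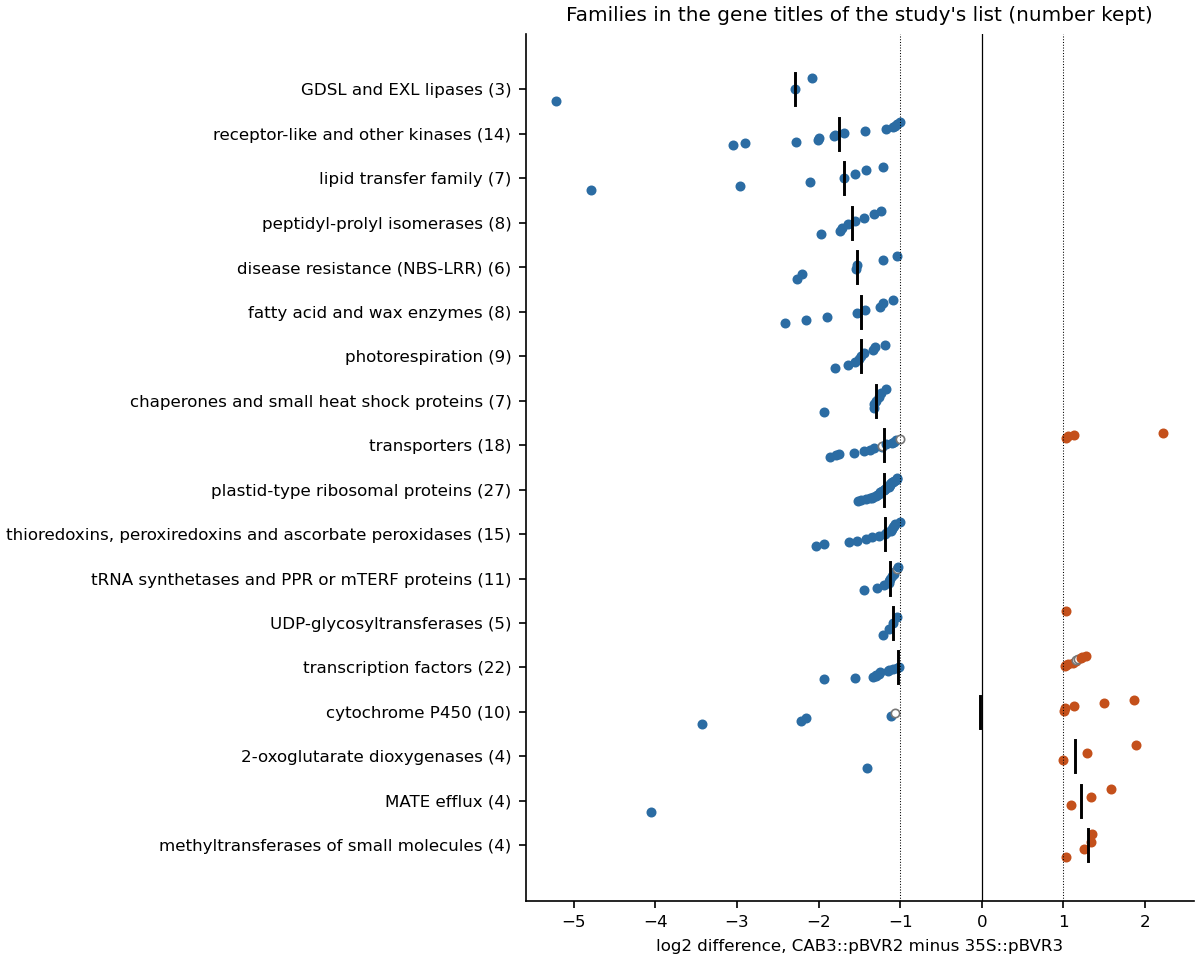
Each point is a kept probe set of a family named in the gene titles of the study's list, leaving out genes in the tables of the paper. The x axis is its log2 difference, CAB3::pBVR2 minus 35S::pBVR3. Blue points passed as lower, orange as higher, open points did not pass, and bars are medians. Ribosomal proteins, photorespiration, isomerases, lipases, lipid transfer proteins, kinases and resistance genes lie wholly to the left, methyltransferases to the right, and transporters, transcription factors, P450 and MATE genes on both sides. The gap between −1 and 1 is set by the 2-fold rule of that list.

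All 14 listed kinases outside the tables of the paper (median −1.75) and all 6 listed genes of the NBS-LRR class (median −1.53) were lower. This is again to be read beside the 82.8% of all listed calls, and the kinases in the tables of the paper went both ways. CRK22, a cysteine-rich receptor-like kinase, had signals of 139, 150 and 166 in No-0 WT, with 100, 88.9 and 137 in 35S::pBVR3 and 15.7, 16.1 and 11.5 in CAB3::pBVR2. The last were below background, for a fall of at least 3.15-fold (adjusted p = 0.000239). CRK18, of the same family and nearby on chromosome 4, fell at least 2.56-fold (88.7, 83.3 and 89.3 against 18.8, 11.3 and 5.48). AT4G19530, a resistance gene of the TIR-NBS-LRR class, went from 142 ± 34.1 to 30.6 ± 10.9 (4.79-fold, adjusted p = 0.00284), and 2 of its 3 CAB3::pBVR2 arrays were below background. RPM1, the receptor for a bacterial effector, fell 2.91-fold (1 such array) and WNK2, a kinase of the WNK family, 4.86-fold. Another gene of the defence response, ACD6, an ankyrin protein that promotes salicylic acid signalling, was not above background in CAB3::pBVR2 and fell at least 2.63-fold.

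Of the 14 kinases, 9 no longer passed under at least 1 setting, and so did 3 of the 6 resistance genes. AT5G58120, of the TIR class, had 33.7, 29.5 and 172 in CAB3::pBVR2 against 314, 249 and 213 in 35S::pBVR3, and its adjusted p (0.0462) rose to as much as 0.143 without CAB3::pBVR2 replicates 1 or 2 or any 1 array of the other lines. Of these CAB3::pBVR2 signals, 1 was below background. LAZ5 (2.31-fold) and the receptor-like kinase ARCK1 (2.7-fold) were close to the threshold too, at 0.0387 and 0.0486, and 2 of 3 CAB3::pBVR2 arrays of ARCK1 were below background. Their calls ended with several single arrays left out, those of CAB3::pBVR2 and 35S::pBVR3 and of No-0 WT among them, at up to 0.115 and 0.145.

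BCB, a blue copper-binding protein, was the brightest gene among the large falls. It had signals of 14190, 12560 and 17687 in No-0 WT and 13079, 11361 and 12503 in 35S::pBVR3, and 949, 1159 and 1503 in CAB3::pBVR2. The fall was 10.4-fold (log2 difference −3.38 ± 0.20, SE, adjusted p = 0.000107), while the No-0 WT and 35S::pBVR3 arrays overlapped each other. AT1G22690, annotated as a gibberellin-responsive protein, had 3278, 2988 and 2646 against 533, 211 and 178, a 10.9-fold fall (adjusted p = 0.000824). NEET, an iron-sulfur protein, went from 1343 ± 365 to 153 ± 19.2, or 8.61-fold. ELI3-1, annotated as a mannitol dehydrogenase, fell 5.28-fold (733 ± 146 to 141 ± 41.2). BCB, NEET and ELI3-1 were chosen after their values were seen, as were the family members named from the study's list.

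NDA1, an alternative dehydrogenase of respiration that oxidises NADH without pumping protons, had signals of 295, 389 and 281 in 35S::pBVR3 and 28.3, 6.07 and 35.3 in CAB3::pBVR2. That fall was 17.5-fold as measured (adjusted p = 0.00253), and 8.9-fold with the 2 CAB3::pBVR2 arrays that lay below background raised to it. NDC1, a plastid and mitochondrial member of the group, went from 481 ± 5.09 to 272 ± 27.8 (1.78-fold, adjusted p = 0.013). Of 9 measured nuclear genes of mitochondrial respiration, NDC1 was the 1 that passed, and the list's median was −0.17.

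Thioredoxins and enzymes that remove peroxide were mostly lower. Of 11 genes for thioredoxins and peroxide detoxification that the platform table named, independent of the study's list, 6 passed as lower and 0 as higher, with a median of −0.70, and 10 of the 11 lay below 0. For comparison, 6.19% of all 8352 measured named genes passed as lower and 1.66% as higher. TAPX, the thylakoid ascorbate peroxidase, fell 2.88-fold (681 ± 122 to 236 ± 36, adjusted p = 0.00308) and NTRC, a plastid thioredoxin reductase joined to a thioredoxin, 2.13-fold. The thioredoxin genes THX and ty2 fell 2.28-fold and 2.16-fold. TRXF2, of the f type that activates Calvin cycle enzymes, had 661, 562 and 788 against 379, 328 and 260, and its call (adjusted p = 0.0318) ended without CAB3::pBVR2 replicates 2 or 3 or 35S::pBVR3 replicates 1 or 3, at up to 0.102. A further 9 genes were named only through the study's list, whose 2-fold rule on these arrays had selected them. All 9 were lower, beside 82.8% of all listed calls, and they are no independent evidence. Among them were the thioredoxin CDSP32 (4.07-fold) and the peroxiredoxins 2-Cys Prx B (3.81-fold) and PRXQ (3.08-fold).

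Photorespiration, which recycles the product of the oxygenase reaction of Rubisco through plastid, peroxisome and mitochondrion, was lower in what was listed. All 9 listed probe sets passed as lower, beside the 82.8% above, with a median of −1.48 and adjusted p of 0.000738 to 0.00361, and 0 of these calls ended under any setting. The platform table named 2 of these 9 probe sets, and 1 gene in the separate gene list for the pathway. That gene, HPR, the peroxisomal hydroxypyruvate reductase, had 9780, 10861 and 10791 in 35S::pBVR3 and 2913, 3831 and 4093 in CAB3::pBVR2 (2.93-fold). In the mitochondrial step, the glycine decarboxylase subunits GDCH and GLDP1 fell 3.11-fold and 2.78-fold and the serine hydroxymethyltransferase SHM1 2.72-fold. GGT1, the peroxisomal glutamate-glyoxylate aminotransferase, fell 2.27-fold from 16193 ± 3132 to 7074 ± 836.

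For translation and folding of proteins in the plastid, the study's list held only falls, against 82.8% over its calls. Of 27 listed ribosomal proteins of the plastid type, 27 were lower, by 2.05-fold to 2.87-fold and with a median of −1.19. The 2-fold rule of the list set the lower limit of this range and bears on its median. PSRP4 fell 2.87-fold, RPL21C 2.59-fold and PRPL35 2.45-fold, and all 27 also had means in 35S::pBVR3 below those of No-0 WT. Peptidyl-prolyl isomerases, which help proteins to fold, were lower in 8 of 8 cases (median −1.59). AT3G10060, of the FKBP type, fell 3.9-fold, FKBP13, of the thylakoid lumen, 2.93-fold and CYP38, a cyclophilin needed for photosystem II, 2.49-fold. Chaperones and small heat shock proteins were lower in 7 of 7 cases, and 0 calls of these isomerases and chaperones ended under any setting. CLPP4, a subunit of the plastid Clp protease that was not in the study's list, fell 1.8-fold (1778 ± 199 to 987 ± 89.4, adjusted p = 0.0125).

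Outside the tables of the paper, 2 genes of starch turnover were named only through the study's list and its 2-fold rule. Both were lower, where 82.8% of all listed calls were lower. CT-BMY, the plastid beta-amylase of starch breakdown, fell 4.62-fold (851 ± 119 to 186 ± 40.2, adjusted p = 0.000409) and ADG1, a subunit of the enzyme that makes ADP-glucose for starch synthesis, 3.14-fold. SUS3, a sucrose synthase, rose 2.43-fold (273 ± 8.84 to 670 ± 130, adjusted p = 0.013). Of 3 other genes of starch metabolism named by the platform table, 0 passed in limma, with 0 below an unadjusted p of 0.05.

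Transporters went both ways. Among 18 listed probe sets, 12 were lower, 4 were higher and 2 did not pass, where 82.8% of all listed calls were lower. SULTR2;1, a sulfate transporter of vascular tissue, had 839, 695 and 746 in 35S::pBVR3 and 233, 190 and 208 in CAB3::pBVR2, a 3.62-fold fall (log2 difference −1.85 ± 0.19, SE, adjusted p = 0.000826). Its signals in No-0 WT were 413, 658 and 540, below those of 35S::pBVR3. AST91, annotated as another sulfate transporter, fell 3.38-fold. OCT2, of the organic cation and carnitine transporters, had 453 ± 17.3 in No-0 WT, with 1709 ± 299 in 35S::pBVR3 and 658 ± 105 in CAB3::pBVR2. STP14, of the sugar transport proteins, had 641 ± 21.7, 1184 ± 204 and 469 ± 48.1. For these 2 and SULTR2;1, 35S::pBVR3 was the highest of the lines, unlike most lower calls.

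The amino acid transporter LHT2 fell 2.95-fold, with 2 of 3 CAB3::pBVR2 arrays below background. NAS3, which makes the metal chelator nicotianamine, and YSL1, which carries its iron complex, fell 3.79-fold and 3.45-fold. Both calls rested on single arrays, ending for NAS3 without 35S::pBVR3 replicate 1 (adjusted p of up to 0.0556). That of YSL1 ended without CAB3::pBVR2 replicates 2 or 3 or any 1 array of 35S::pBVR3 (up to 0.0916).

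AT1G72140, of the proton-dependent oligopeptide transporters, was the largest rise in this group. It had 56.1, 47.6 and 67.8 in No-0 WT, with 82.9, 60.7 and 86.1 in 35S::pBVR3 and 437, 332 and 305 in CAB3::pBVR2, a 4.67-fold rise (log2 difference 2.22 ± 0.21, SE, adjusted p = 0.000682). GORK, the outward potassium channel of guard cells and roots, rose 2.09-fold (64.9 ± 9.14 to 135 ± 12.5), with a call that ended without 35S::pBVR3 replicate 1 (0.0545). MGT7, a magnesium transporter, rose 2.05-fold and its adjusted p of 0.0181 reached 0.0673 when single arrays of either pBVR line were left out. The vacuolar sugar carriers of the SWEET family parted, with SWEET2 2.34-fold lower (2197 ± 27.3 to 956 ± 226) and SWEET17, a fructose carrier, 1.85-fold higher (1581 ± 190 to 2960 ± 657). The SWEET17 call (adjusted p = 0.021) ended without CAB3::pBVR2 replicates 1 or 2 or 35S::pBVR3 replicates 1 or 3, at up to 0.077.

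The listed MATE efflux carriers also parted, with 1 of 4 lower and 3 higher, where 82.8% of all listed calls were lower. DTX1 had 604, 1069 and 574 in 35S::pBVR3 and 52.0, 55.7 and 28.1 in CAB3::pBVR2, the last below background. AT5G38030 had 75.7, 69.5 and 56.5 against 331, 235 and 104, a 3.01-fold rise (adjusted p = 0.0266), and AT5G17700 rose 2.52-fold (0.0347). None of the 3 genes overlapped between the lines. The calls of the 2 rising genes ended without CAB3::pBVR2 replicate 1, and with other single arrays left out, at up to 0.0866 and 0.111. A probe set shared by several loci rose 2.12-fold and kept its call under every setting.

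**Figure D4:**
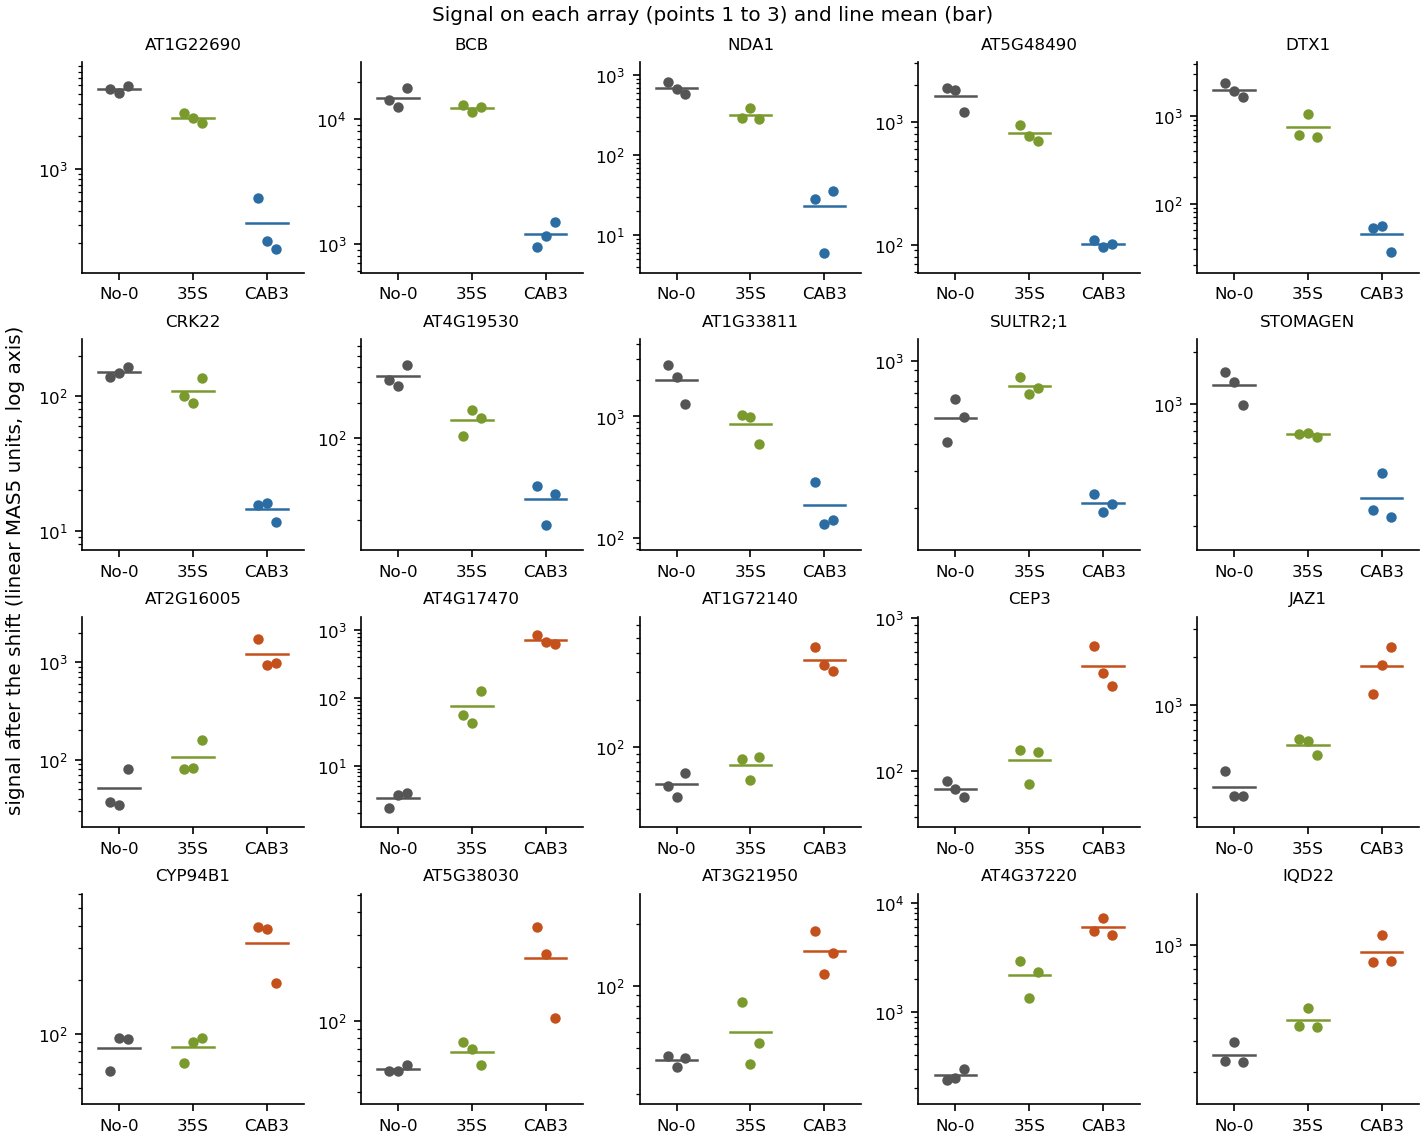
Signals of 20 named genes on each array, as points for replicates 1 to 3, with the mean of the line as a bar, on a log axis of linear intensity units. In the upper 2 rows the CAB3::pBVR2 arrays (blue) lie below those of 35S::pBVR3 (green) and No-0 WT (grey), and in the lower 2 rows (orange) above them. For BCB and CRK22 the drop lies almost wholly between 35S::pBVR3 and CAB3::pBVR2, whereas AT4G37220 and JAZ1 already differ between No-0 WT and 35S::pBVR3.

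There were 5 named and kept genes of the guard cell lineage, 2 from the platform table and 3 from the study's list. STOMAGEN and TMM passed as lower, GORK passed as higher, and FMA and ALMT12 did not pass. For comparison, 6.19% of all measured named genes and 82.8% of all listed calls were lower. TMM, GORK and ALMT12 had been selected by the 2-fold rule of the list on these arrays, and are no independent evidence. STOMAGEN, a peptide that mesophyll releases to raise the number of stomata in the epidermis, had 1529, 1339 and 995 in No-0 WT, with 672, 688 and 652 in 35S::pBVR3 and 246, 401 and 224 in CAB3::pBVR2. This was a 2.39-fold fall (adjusted p = 0.0135), which did not pass without CAB3::pBVR2 replicate 1 (0.0526). TMM, a receptor that acts in the spacing of stomata, fell 2.25-fold (224 ± 38.8 to 101 ± 27.4), and not without 35S::pBVR3 replicate 2 (0.0518). SCRM2, a transcription factor of that lineage outside the list of markers and chosen after its values were seen, fell 2.02-fold (445 ± 5.48 to 224 ± 53.7, adjusted p = 0.0101). CHX20, a cation exchanger of guard cells that was not in the study's list, was not above background in CAB3::pBVR2 (20, 3.66 and 21.5 against 56.8, 64.0 and 59.0). Its fall of at least 1.76-fold had an adjusted p of 0.0347 that reached 0.103, with calls ending without any 1 array of 35S::pBVR3. FMA, the last regulator of the guard cell fate, did not pass (125 ± 13.8 and 85.6 ± 47.8, adjusted p = 0.3).

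Transcription factors outside the tables of the paper split 12 lower to 8 higher among 22 listed, with 2 not passed. Of all listed calls, 82.8% were lower. Factors in the tables of the paper were left out of this count and also went both ways. SEP3, a MADS-box factor best known from flowers and outside that group of titles, had 166, 102 and 138 in 35S::pBVR3 and 9.77, 14.5 and 9.05 in CAB3::pBVR2, below background, a fall of at least 3.91-fold (adjusted p = 0.000302). RAP2.2, an AP2 factor of the low-oxygen response, had 3959, 4023 and 3462 against 1268, 1444 and 1202 (2.93-fold, adjusted p = 0.00231), with No-0 WT at 3791 ± 1101. TCP10, a regulator of leaf shape, and BLH4 and ATH1, of the homeobox class, fell 2.39-fold, 2.38-fold and 2.13-fold. RAP2.7, a repressor of flowering, rose 2.04-fold (363 ± 66.5 to 735 ± 72.1, adjusted p = 0.0059) and ZFP6, a zinc finger factor, 2.1-fold. Of the 20 calls in this group, 10 ended under at least 1 setting, in each case also with a single array left out. The calls of the 6 genes named last, RAP2.2, TCP10, BLH4, ATH1, RAP2.7 and ZFP6, held throughout.

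The rises gathered fewer genes. AT2G16005, of the MD-2-related lipid recognition proteins, had 37.3, 34.9 and 80.6 in No-0 WT, with 81.5, 82.0 and 159 in 35S::pBVR3 and 1728, 934 and 978 in CAB3::pBVR2 (log2 difference 3.51 ± 0.40, SE, adjusted p = 0.00123). A second gene of that protein class, AT5G23820, had 861 ± 89.0 against 1840 ± 541 (2.08-fold, adjusted p = 0.0193). The second call ended without CAB3::pBVR2 replicates 1 or 2 or 35S::pBVR3 replicates 1 or 2, at up to 0.0716. AT4G17470, a palmitoyl protein thioesterase gene, had 2.34, 3.72 and 3.99 in No-0 WT, all below background, and 56.1, 43.5 and 127 in 35S::pBVR3. Its CAB3::pBVR2 signals were 853, 664 and 630. AT4G37220, annotated as stress-responsive, rose by steps as well, from 260 ± 34.0 over 2184 ± 799 to 5934 ± 1170 (2.82-fold between the pBVR lines, adjusted p = 0.0118). AT1G27030, with no annotated function, had 384 ± 79.5, 2118 ± 636 and 5825 ± 646. In both, the 35S::pBVR3 and CAB3::pBVR2 arrays did not overlap.

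CEP3, a cysteine endopeptidase, rose 4.09-fold, from 136, 82.4 and 133 to 653, 435 and 359 (log2 difference 2.03 ± 0.27, SE, adjusted p = 0.00228). Another probe set titled as a cysteine proteinase, which several loci share, rose 3.65-fold to 4496 ± 1074. AT2G17500, of the auxin efflux carrier family, rose 2.82-fold and AT3G57540, a remorin of the plasma membrane, 3.2-fold. These 4 were chosen after their values were seen, and their calls held under every setting.

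Of 3 jasmonate genes named through the study's list, 2 passed as higher and JAZ7 did not pass, while the platform table named 0 kept ones. Of all listed calls, 82.8% were lower. Jasmonate is a hormone of wounding and defence. JAZ1, a repressor in jasmonate signalling that is itself induced by it, had 384, 268 and 271 in No-0 WT, with 610, 593 and 489 in 35S::pBVR3 and 1165, 1776 and 2292 in CAB3::pBVR2 (2.99-fold, adjusted p = 0.00605). MYC2, the transcription factor that JAZ proteins hold back, rose 2.34-fold (485 ± 164 to 1096 ± 105, adjusted p = 0.011). CYP94B1, which oxidises the active form of the hormone, rose 3.65-fold (84.6 ± 14.0 to 322 ± 113) and RGLG3, a ubiquitin ligase, 3.44-fold (184 ± 49.1 to 617 ± 27.4). CYP94B1 and RGLG3 were outside the jasmonate list and chosen after their values were seen. All 4 genes were separate between the lines and named only through the study's list. Of the thionins, small toxic proteins, THI2.1 rose 2.57-fold and THI2.2 fell 1.94-fold. Their adjusted p were 0.0495 and 0.0393, and both calls ended under many of the settings, including the leaving out of each CAB3::pBVR2 array (up to 0.143 and 0.12).

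CYP81F4, which hydroxylates indole glucosinolates, had 1555, 2508 and 1933 in 35S::pBVR3 and 6758, 5297 and 4785 in CAB3::pBVR2 (2.83-fold, adjusted p = 0.0031). IGMT5, a methyltransferase of indole glucosinolates, had 1325, 1246 and 933 against 4170, 2615 and 1931 (2.39-fold, adjusted p = 0.0255). All 4 listed methyltransferases of small molecules, a group chosen after its values were seen, were higher (median 1.3), where 82.8% of all listed calls were lower. The calls of all 4 ended under some setting, for IGMT5 without CAB3::pBVR2 replicates 1 or 2 or any 1 array of 35S::pBVR3 (up to 0.085). Of the listed 2-oxoglutarate dioxygenases, which oxidise hormones and glucosinolates among other compounds, 3 of 4 were higher, beside the same share. They were led by AT1G14120 (190 ± 71.9 to 684 ± 196, 3.71-fold) and AT2G25450 (2.45-fold), while AT1G04350 fell 2.65-fold (605 ± 56.7 to 229 ± 25.9).

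The P450 enzymes were split almost evenly, with 4 lower, 5 higher and 1 not passed among 10 listed and a median of −0.03. Of all listed calls, 82.8% were lower. CYP71B4 had 567, 942 and 520 against 44.0, 109 and 46.0 (10.8-fold lower, with the first CAB3::pBVR2 array below background) and CYP89A2 fell 4.65-fold. CYP707A2, an abscisic acid hydroxylase, fell 4.44-fold, while CYP94B1 and CYP81F4 led the rises and CYP705A33 rose 2.03-fold. Among 11 other P450 genes named by the platform table, CYP71B26 was the 1 that passed (2.17-fold lower) and the median was 0.19. GSTU26, a glutathione S-transferase, rose 2.54-fold (291 ± 56.5 to 754 ± 246, adjusted p = 0.0126). It was the 1 call among 11 measured members of its family named by the platform table, of which 2 were higher and 1 lower with the block. GSTL2, of the same family and named only through the study's list, passed as lower.

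Changes under 2-fold lay outside the study's list, which required a 2-fold difference. They numbered 473 lower and 141 higher probe sets, and 0 of the former and 1 of the latter were in that list. GME, an epimerase of ascorbate synthesis, had 7534, 7921 and 8142 in 35S::pBVR3 and 3775, 4519 and 4100 in CAB3::pBVR2, a 1.91-fold fall (log2 difference −0.93 ± 0.13, SE, adjusted p = 0.00325). DAL1, a ubiquitin ligase of the outer plastid envelope, fell 1.90-fold (1155 ± 52.8 to 609 ± 51.4) and HCF101, a carrier of iron-sulfur clusters in the plastid, 1.82-fold (465 ± 31.3 to 257 ± 26.3). FTSZ2-2, of the plastid division ring, fell 1.60-fold, from 224 ± 16.7 to 140 ± 1.51, and not without 35S::pBVR3 replicate 1 or CAB3::pBVR2 replicate 1 (up to 0.0622).

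Of 11 genes of the response to darkness and sugar starvation, 2 passed as lower (median −0.36), beside 6.19% of all named genes. AKINBETA1, a subunit of the SnRK1 kinase that signals energy shortage, had 4644 ± 296 in No-0 WT, with 5816 ± 310 in 35S::pBVR3 and 3230 ± 631 in CAB3::pBVR2 (1.82-fold lower, adjusted p = 0.0156). ETFQO, which passes electrons from amino acid breakdown to respiration in the dark, had 892 ± 175, 1469 ± 78.1 and 887 ± 7.15 (adjusted p = 0.0261). ACLA-3, a subunit of ATP-citrate lyase outside that list, had 2122 ± 244, 2802 ± 186 and 1753 ± 45.3. Leaving out 35S::pBVR3 replicate 1 ended the call of AKINBETA1 (0.0588), while those of ETFQO and ACLA-3 ended without any 1 array of CAB3::pBVR2 and without some of 35S::pBVR3 (up to 0.0815 and 0.0683). Among 11 autophagy genes, 0 passed in limma (1 lower and 0 higher at an unadjusted p under 0.05), and their median of −0.02 changes sign with the scaling.

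Among rises under 2-fold, IQD22, a calmodulin-binding protein, had 465, 550 and 460 against 851, 1097 and 862 (1.90-fold, adjusted p = 0.00952). UBC29, of the ubiquitin-conjugating enzymes, had 637 ± 15.0 against 1044 ± 98.9 (1.63-fold, adjusted p = 0.0165). Its call ended without CAB3::pBVR2 replicate 1 or 35S::pBVR3 replicates 1 or 3, at up to 0.0599. ATC, a relative of the flowering regulator TFL1, rose by steps from 121 ± 12.7 in No-0 WT over 339 ± 41.8 to 607 ± 133. Its adjusted p of 0.0338 between the pBVR lines reached 0.108, and the call ended after scaling to the median, without CAB3::pBVR2 replicates 1 or 2 and without any 1 array of 35S::pBVR3.

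Of the larger changes, 26 lower and 17 higher calls of at least 2-fold (560 and 127 in all, 3.63% and 0.823% of the probe sets tested) were not in the study's list. AT4G11900, which has no annotated function here, was one, with 57.1, 41.3 and 112 against 1.84, 15.7 and 5.30, the latter below background (at least 1.89-fold, adjusted p = 0.0175). COR27, a cold-regulated gene tied to the clock, fell 2.04-fold (4869 ± 452 to 2495 ± 942) and ATSPS4F, a sucrose phosphate synthase, 3.44-fold. The calls of all 3 ended with single arrays of either pBVR line left out, at up to 0.0633, 0.103 and 0.134. The largest rise outside the list, a probe set with no gene name here, went from 6.12, 3.13 and 7.6, below background, to 46.0, 203 and 70.7, the first of which also lay below background, or at least 2.83-fold (adjusted p = 0.0105).

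**Figure D5:**
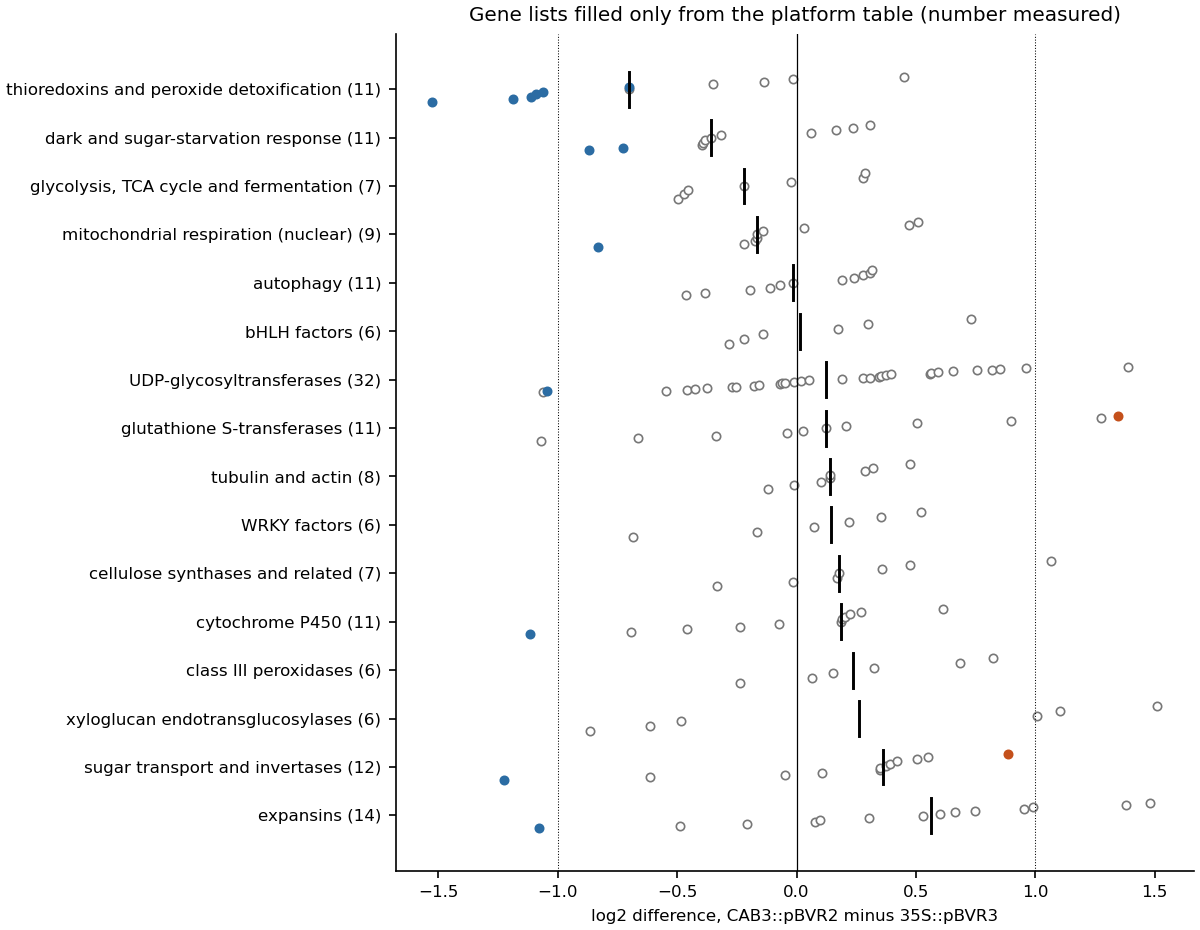
Each point is a gene of a list that was filled only from the platform table. The x axis is its log2 difference, CAB3::pBVR2 minus 35S::pBVR3. Filled points passed the test (blue lower, orange higher), open points did not, and bars are medians of the list. Thioredoxins lie mostly below 0, expansins mostly above, and most members of the other lists did not pass.

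Lists with members named only by the platform table held few calls, as the plot of these lists shows. Of 14 measured expansins, wall-loosening proteins, EXPA16 was the 1 that passed (2.11-fold lower, adjusted p = 0.0305, up to 0.0994 with single arrays left out, and 2 of 3 CAB3::pBVR2 arrays below background), while the list's median was 0.57, against 0.03 for all probe sets. EXPA8 had 1455, 537 and 643 in 35S::pBVR3 and 3361, 2109 and 1540 in CAB3::pBVR2. These arrays did not overlap, but EXPA8 did not pass (2.79-fold higher, adjusted p = 0.0589). With the replicate number as a block it passed (adjusted p = 0.00504), and so did EXPA18 (0.0360 against 0.133 without the block), which made 2 higher expansins. Of 6 xyloglucan endotransglucosylases, which remodel the wall, 0 passed in limma (1 lower and 1 higher at an unadjusted p under 0.05), and XTH19 spread over 1676, 532 and 672 against 2198, 1328 and 4755. Of 32 UDP-glycosyltransferases, UGT85A4 was the 1 call (2.06-fold lower), at a median of 0.12, and 5 passed with the block (2 lower and 3 higher). For 8 tubulin and actin genes, 7 cellulose synthase genes, 6 WRKY factors and 7 genes of glycolysis, the TCA cycle and fermentation, 0 passed in limma. At an unadjusted p under 0.05 these 4 lists held 0, 1, 1 and 1 genes, and with the block 1, 1, 1 and 0 passed. The study's list, selected by its 2-fold rule on these arrays, held further calls in such families. XTH6, FBA7 and FBA2 were lower there, and of 5 listed UDP-glycosyltransferases 4 were lower and 1 was higher. Of all listed calls, 82.8% were lower. TUA6, an alpha-tubulin, had 6316 ± 1302 and 6304 ± 1576.

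Among named genes that neighbour each other on a chromosome, 2 runs of 3 passed in 1 direction. AT1G33790, AT1G33810 and AT1G33811 lie on chromosome 1 between 12256474 and 12269913 (TAIR10.1), and their log2 differences were −1.45, −0.66 and −2.28. The first had 176, 74.9 and 120 against 63.6, 42.2 and 29.2, and the second 1888 ± 101 against 1196 ± 89.3. Their adjusted p were 0.0484 and 0.0406 and both calls ended with single arrays left out, CAB3::pBVR2 replicates 2 and 3 and 35S::pBVR3 replicates 1 and 3 among them, at up to 0.139 and 0.118, so that of this run AT1G33811 alone held. AT3G19800, AT3G19810 and AT3G19850 lie on chromosome 3 between 6876043 and 6901334, at −1.86, −0.93 and −1.22. AT3G19800 had 773, 811 and 1048 against 234, 224 and 262 (adjusted p = 0.000495), and AT3G19810, whose span overlaps its end, 548 ± 59.5 against 289 ± 50.5 (0.00996). AT3G19850 is named in the tables of the paper, and its call ended without CAB3::pBVR2 replicates 1 or 2 or 35S::pBVR3 replicate 3, at up to 0.0568.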

How the data were processed

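The authors deposited linear probe set intensities of 9 ATH1 arrays made with MAS5, whose version is not given in the sources used here. Each array had, judged by its values, been scaled to a mean of 500 after trimming of 2%. The deposited table holds no detection calls, so that the flag filter of the methods was replaced by one on signal. Of 22746 probe sets (64 controls left out, 3 values of 0 set to 0.1), those at or above their array's 40th percentile on at least 1 array were kept, which left 15436. Intensities were logged (log2) and shifted by each array's 75th percentile, as in the methods.

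The pBVR lines were contrasted in limma 3.58.1 (R 4.3.3), with all 9 arrays in 1 fit and Benjamini-Hochberg adjustment over all kept probe sets at a threshold of 0.05. Folds are 2 to the power of the difference between mean log2 values, and signals are means ± SD of 3 arrays. A line whose arrays all lay at or under the highest bacterial control (25.4 to 49.6 before the shift) is called not above background, and its fold is a lower bound against that level. The number of arrays limits the precision. With 3 against 3, the smallest exact permutation p is 0.1. The paper reports 3 independent RNA extractions per sample, with each labelled RNA on its own array. Neither the paper nor the labels state whether replicates were separate cultures, so that p measures the spread between these arrays, which may be technical.

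Same-numbered arrays deviated together (9 pairs at 0.207 to 0.391, against −0.263 to −0.051 for 18 other pairs). This pairing comes from the data and not from the labels, so that the fit has no block and the block is an alternative. The members and lists were chosen with earlier results of these data known. In the platform table, 13513 probe sets had 1 gene (13508 matched RefSeq, TAIR10.1), 503 had several and 8730 had none. The gene titles of the study's list named 346 more, and the fold changes and tests in that list were not used. Genes were named from the 20 largest falls and rises and the 10 smallest p of changes under 2-fold in each direction, among genes outside the paper's tables with arrays apart, up to 5 called members of a list and runs of neighbouring genes, and not all of these are described. All other genes, and the families by title, were chosen after their values were seen. Promoter sequences were not used here. Alternatives changed the scaling, filter, log offset, arrays, block and variance model.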

Additional observations from a re-analysis of the deposited data

How the results depend on the processing

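With single arrays left out, lower calls numbered 653 to 924 and higher calls 99 to 233, and higher calls of at least 2-fold 68 to 128. The lowest counts came without 35S::pBVR3 replicate 1 (653) and without CAB3::pBVR2 replicate 1 (99 and 68). Higher calls also fell to 155 without CAB3::pBVR2 replicate 2, to 141, 152 and 132 without 35S::pBVR3 replicates 1, 2 and 3, and to 174 without No-0 WT replicate 2. With no filter on signal, 22746 probe sets were tested, and 619 were lower, 76 higher and 61 higher by at least 2-fold. With the 6 arrays of the pBVR lines alone, 156 were higher. The replicate block gave 637 higher, 201 of them by at least 2-fold, and among named genes called without it, it ended only the call of AT4G36010 (adjusted p = 0.0583). The one-way analysis of variance of the methods, which asks for a difference among the 3 lines, gave 2298 lower and 1331 higher. With the 2-fold limit that the methods add to it, 567 were lower and 149 higher. The causes were not tested. No call changed sign under any of these settings, and counts of lower calls of at least 2-fold stayed within 1.5 times the reported one. Of the 290 called probe sets picked for naming (by the rule, the families or after their values were seen), 182 kept it under every setting and 100 lost it with some single array left out. The 3 arrays per line, the 31 lower calls not above background in CAB3::pBVR2, and the gene names for only 54.5% of kept probe sets from the platform table limit what can be said of families.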
